A study of Homo sapiens with 5 samples.

Results

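Intergenic HSF1 sites without MYC are places in the OVCAR8 genome where CUT&RUN detected heat shock factor 1 (HSF1) far from genes and where no peak of the transcription factor MYC was called. The 288 sites were chosen by their peak calls and their position among 2141 reproducible HSF1 sites, of which they make up 13.5%. A reproducible site is a merged interval that holds a peak of both HSF1 libraries, with at least 1 bp of overlap. A site was a member when it overlapped no peak of either MYC library and when its midpoint lay more than 3 kb from every start site, and outside the body, of every protein-coding or lncRNA gene in GENCODE 44. The presence of HSF1 peaks, the absence of MYC peaks and the distance from genes are therefore not findings. In the same way 598 reproducible HSF1 sites were intergenic, and 48.2% of them had no MYC peak.

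The OVCAR8 line was established from a human ovarian carcinoma, and its cells were proliferating in all libraries. They were cross-linked briefly with formaldehyde before CUT&RUN, and the paper names no other treatment of them. CUT&RUN brings a nuclease to an antibody-bound protein in permeabilized cells, and the DNA fragments it releases are sequenced. The series holds 2 HSF1 libraries, 2 MYC libraries and 1 IgG library. The headers of all 4 peak lists name the same control, IgG replicate 2, while the labels list the IgG library without a number, and it was taken to be that control. No fold in the lists is free of it. After filtering, HSF1 replicates 1 and 2 held 10042269 and 8721440 fragments, MYC replicates 1 and 2 held 8265647 and 10084407, and the IgG library held 9306942. Peaks were called with a threshold of 1e-04 on the p-value for HSF1 and of 1e-10 for MYC, so "without MYC" means that no MYC peak reached the stricter threshold at this depth. The labels do not say whether replicates came from separate cultures. Each value below is the fold enrichment of the strongest peak over IgG, given for HSF1 replicate 1 and then replicate 2, unless another measure is named.

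HSF1 is the main transcription factor of the heat shock response. It binds DNA as a trimer, and its heat shock element is a row of GAA units that alternate in orientation, each a small number of bases from the next. In stressed human cells HSF1 also gathers at pericentromeric satellite DNA made of GGAAT repeats, where nuclear stress bodies form. AP-1 factors, dimers of JUN and FOS proteins, bind many distal regulatory elements.

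The sequences below show the kinds of DNA found at the summits. All are the plus strand of GRCh38. The first 3 are members with a heat shock element among the 10 highest by mean fold enrichment, at chr18:59780157-59780229, chr14:23589265-23589337 (near JPH4) and chr7:117269480-117269552 (near CFTR). Capitals mark the longest row of alternating GAA and TTC units, 5 bp from one unit start to the next.
Chromosome 18 site: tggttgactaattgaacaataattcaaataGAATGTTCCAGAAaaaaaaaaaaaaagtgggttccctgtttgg
JPH4 site: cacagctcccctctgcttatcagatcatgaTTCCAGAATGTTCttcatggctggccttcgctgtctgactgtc
CFTR site: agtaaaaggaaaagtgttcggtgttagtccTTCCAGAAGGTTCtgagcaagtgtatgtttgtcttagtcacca
The next 4 hold rows of more than 3 units, which is why they are shown: 5 units at chr7:98781344-98781426 (nearest gene TMEM130) and chr7:6922782-6922864 (nearest gene CCZ1B), and 4 units at chr7:44131984-44132061 (nearest gene POLD2) and chr4:31659148-31659225 (nearest gene LINC02501).
TMEM130 site: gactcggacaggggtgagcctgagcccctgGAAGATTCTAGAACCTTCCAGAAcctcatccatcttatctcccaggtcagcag
CCZ1B site: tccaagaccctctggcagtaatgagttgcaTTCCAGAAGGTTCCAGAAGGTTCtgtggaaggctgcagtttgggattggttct
POLD2 site: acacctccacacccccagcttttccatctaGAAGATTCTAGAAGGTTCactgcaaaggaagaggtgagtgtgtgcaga
LINC02501 site: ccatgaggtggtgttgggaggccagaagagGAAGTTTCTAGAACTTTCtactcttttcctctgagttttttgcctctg
The elements near the listed genes HSPB1 (chr7:76314512-76314584) and ITGB6 (chr2:160091512-160091584) were the following.
HSPB1 site: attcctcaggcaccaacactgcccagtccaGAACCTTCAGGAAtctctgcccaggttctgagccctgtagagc
ITGB6 site: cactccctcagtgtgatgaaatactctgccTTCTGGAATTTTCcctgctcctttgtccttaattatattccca
A second kind of member lay in tandem GGAAT repeats. Shown are the members with the highest replicate 2 pileup on chromosomes 4, 5 and 10 whose sequence has no assembly gap, at chr4:49149393-49149513, chr5:49601573-49601693 and chr10:41859884-41860004, with each GGAAT (or ATTCC, the same pentamer on the other strand) in capitals.
Chromosome 4 array: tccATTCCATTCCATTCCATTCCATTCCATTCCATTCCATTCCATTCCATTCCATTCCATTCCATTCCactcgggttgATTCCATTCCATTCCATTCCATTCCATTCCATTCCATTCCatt
Chromosome 5 array: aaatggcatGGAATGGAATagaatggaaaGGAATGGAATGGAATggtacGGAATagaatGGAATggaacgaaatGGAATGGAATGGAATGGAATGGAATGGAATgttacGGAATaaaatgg
Chromosome 10 array: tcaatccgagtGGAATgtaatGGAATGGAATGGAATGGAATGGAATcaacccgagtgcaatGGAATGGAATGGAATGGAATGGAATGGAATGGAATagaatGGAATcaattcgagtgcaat
Members with neither kind of sequence within 100 bp of the summit had strong peaks too. Shown are the 3 with the highest mean fold enrichment, at chr7:142478367-142478487 (near TRBV11-2), chr2:3168832-3168952 (near EIPR1) and chr20:57902580-57902700 (57260 bp from the start of the lncRNA gene ENSG00000203971). The last holds, in capitals, a match to the AP-1 pattern TGANTCA searched here, in which N is any base. The chromosome 2 site lies 25490 bp from EIPR1, and a lncRNA start is closer, at 12145 bp.
TRBV11-2 site: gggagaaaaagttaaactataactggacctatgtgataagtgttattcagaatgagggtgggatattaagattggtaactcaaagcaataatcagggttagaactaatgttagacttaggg
EIPR1 site: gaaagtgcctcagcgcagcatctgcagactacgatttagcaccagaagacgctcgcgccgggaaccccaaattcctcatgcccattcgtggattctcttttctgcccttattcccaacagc
Chromosome 20 site: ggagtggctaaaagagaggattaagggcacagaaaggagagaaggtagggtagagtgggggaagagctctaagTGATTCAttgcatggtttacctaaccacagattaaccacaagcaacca

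The strongest member was chr18:59779161-59781169, with fold enrichments of 56.9 and 39.5 and pileups of 148 and 94 fragments at the summit. It was the highest of the 288 in both libraries. It lies 79642 bp downstream of the start of the lncRNA gene ENSG00000273664 and 82503 bp upstream of CCBE1, a gene of lymphatic development, and it holds the element GAATGTTCCAGAA. The next was chr7:142478081-142478710, with 19.1 and 34.1, 44500 bp from TRBV11-2, a gene of the T cell receptor beta locus that this annotation types as lncRNA. It holds no heat shock element within 100 bp of the summit.
The site near JPH4, which codes for a junctophilin, had 30.1 and 17.2 and lies 10715 bp upstream of that gene (chr14:23588971-23590039). It holds a heat shock element and was higher in replicate 1.
The site at chr2:3168523-3169280 had 17.1 and 29.7 and that at chr20:57901846-57902955 had 17.5 and 26.1. The site at chr4:65942766-65943336, 55795 bp from a lncRNA start and 272556 bp upstream of EPHA5, an ephrin receptor, had 16.9 and 26.3. All 3 were higher in replicate 2 and none holds a heat shock element within 100 bp of the summit.
Also among the 10 highest were chr2:127173736-127174385 (21.2 and 19.5, with an AP-1 motif), chr14:53032217-53033125 (15.9 and 22.9, 4084 bp from a lncRNA start and 20415 bp from a start of DDHD1) and chr7:117269152-117270038. The last lies 17525 bp upstream of CFTR, the chloride channel gene mutated in cystic fibrosis, with 17.5 and 20.9. Of these 10 members, 4 hold a heat shock element within 100 bp of the summit.

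Over all 288 members the median fold enrichment was 5.60 in replicate 1 (1.44 to 56.9) and 6.19 in replicate 2 (1.23 to 39.5). The median pileup at the summit was 16 and 15.5 fragments. A fold of at least 10 in both libraries was reached by 28 members (9.72%), and a fold of at least 5 in both by 143 (49.7%). With the MYC threshold of 1e-10 applied to both HSF1 libraries 111 members remained (38.5%), beside 37% of all reproducible HSF1 sites. Across the 288 members Spearman's rank correlation between the replicates was 0.767, and it was 0.632 without the 49 members in GGAAT arrays and 0.621 within them; the 2 libraries share the IgG background, and no p-value is given.

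**Figure D1:**
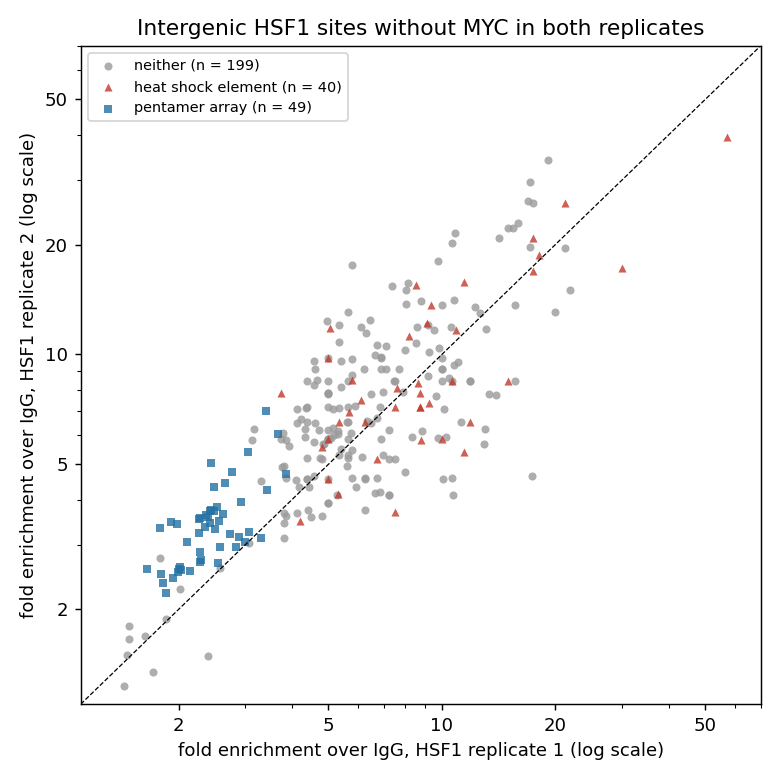
Fold enrichment over IgG of each of the 288 members in HSF1 replicate 1 (x axis) and replicate 2 (y axis), both on log scales; the dashed line marks equal values. The 49 members in pentamer (GGAAT) arrays lie between 1.65 and 3.85 in replicate 1 and nearly all above the line, and the strongest member, with a heat shock element, is at 56.9 and 39.5.

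A heat shock element, written GAANNTTCNNGAA or TTCNNGAANNTTC (3 alternating units over 13 bp, searched on both strands), was present within 100 bp of the summit in 40 members. This is 13.9% (95% Wilson interval 10.4 to 18.4%), beside 10.1% of all reproducible HSF1 sites. Of all windows of 201 bp in the genome, 0.283% hold the element, and of those that are intergenic by the same rule 0.271% do. The longest row of units was 5 in 3 members, 4 in 2 and 3 in 35. A pair of units was the longest row in 61 members, single units in 186, and 1 had none. Rows of at least 4 units were in 1.74% of members, beside 0.934% of all reproducible HSF1 sites. They were in 2.60% of distal sites without MYC inside gene bodies and in 0% of intergenic sites with MYC. The 5-unit members were the TMEM130 site (11.5 and 15.8), the CCZ1B site (9.14 and 12.2) and a site 9756 bp upstream of LINC01592 (6.11 and 7.49). The 4-unit members were the POLD2 site (8.18 and 11.2; POLD2 is a subunit of DNA polymerase delta) and the LINC02501 site (5.32 and 6.52). The longest row was thus not found at the strongest site, which has 3 units.

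The 40 members with an element had a median fold of 8.70 and 7.82, and the 199 members with neither an element nor a GGAAT array had 5.79 and 6.52. The fold belongs to the rule, so no test was made. When the 239 members outside GGAAT arrays were ordered by mean fold, the element was found in 17 of the 80 highest (21.2%), in 17 of the next 80 and in 6 of the 79 lowest (7.59%). Intergenic sites without MYC that only 1 HSF1 library called, which are not members, held the element in 6.67% of cases.
Genes next to members with an element include some with well-known roles, named here after their values were seen. The member 22259 bp from the start of SAT1, an enzyme of polyamine breakdown, had 8.78 and 5.82. The member 19999 bp upstream of ARAF, a RAF kinase, had 8.74 and 7.17, and that 38698 bp upstream of NCOA3, a coactivator of nuclear receptors, had 10.6 and 8.47. The member 14054 bp upstream of FGF19, a growth factor, had 4.81 and 5.56. These sites lie between the lowest and the highest folds of members with an element, 3.75 to 56.9 in replicate 1.

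Members were compared with the 2 classes of HSF1 sites most like them: 269 sites without MYC that lie inside a gene body more than 3 kb from every start site, and 310 intergenic sites that overlap a MYC peak. The comparison asks whether the DNA under HSF1 differs with the place and with MYC. The heat shock element was less frequent in members (13.9%) than in intragenic sites without MYC (26.4%, 21.5 to 32.0%), with an odds ratio of 0.450 (two-sided Fisher's exact test, p = 0.00057 after Benjamini-Hochberg adjustment over the 4 tests made). It was more frequent in members than in intergenic sites with MYC (4.52%, 2.71 to 7.44%), with an odds ratio of 3.41 (same exact test, adjusted p = 0.00034). Without the GGAAT arrays the share in members was 16.7%, and the odds ratios were 0.561 (adjusted p = 0.0195) and 4.25 (adjusted p = 8.76e-06, same exact test). The median GC content of the motif window was 42.3% in members, 42.3% in intragenic sites without MYC and 49.0% in intergenic sites with MYC. The part of GC content in these differences was not tested.
In single lists the order of the 3 classes was the same in each HSF1 library. Replicate 1 alone gave 11.8% of 745 members, 14.6% of 895 intragenic sites and 1.80% of 943 sites with MYC. Replicate 2 alone gave 9.41% of 627, 13.0% of 701 and 3.53% of 481. The difference from intragenic sites did not pass the threshold in either list alone (exact test, adjusted p = 0.109 in replicate 1 and 0.0608 in replicate 2) or with only MYC replicate 2 counted as MYC (adjusted p = 0.085). It did not pass either when each HSF1 list was set against the MYC list of the same replicate number (odds ratio 0.771, adjusted p = 0.0816 in replicate 1, and 0.868, adjusted p = 0.556 in replicate 2, same exact test), while the difference from sites with MYC passed in both pairs. With HSF1 peaks held to the threshold of 1e-10, neither difference in the element passed (same exact test, adjusted p = 0.158 for both). Regions are not replicates, so these tests describe the libraries at hand.

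The AP-1 motif, searched as TGANTCA with any base at N, was found in 39 members (13.5%, 10.1 to 18.0%), beside 16.8% of all reproducible HSF1 sites, 6.19% of all genome windows and 6.22% of intergenic windows. It was present in 18.2% of the intragenic sites without MYC (odds ratio 0.703, same exact test, adjusted p = 0.133), a difference that passed with the wider window of 250 bp (0.659, adjusted p = 0.0172) and with HSF1 replicate 1 alone (0.730, adjusted p = 0.0121) and that turned to an odds ratio of 1.06 (adjusted p = 0.728) with the replicate 2 lists of HSF1 and MYC alone. It was present in 21.6% of the intergenic sites with MYC (odds ratio 0.568, same exact test, adjusted p = 0.0136). The latter difference did not pass the threshold once GGAAT arrays were left out (15.9% of members, odds ratio 0.686, same exact test, adjusted p = 0.135), and it was lost in 8 of 18 alternatives in all. Only 5 members held both motifs. The E-box CACGTG, the motif of MYC and its partner MAX, was in 6 members (2.08%), beside 2.94% of all reproducible HSF1 sites and 1.72% of intergenic windows.

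**Figure D2:**
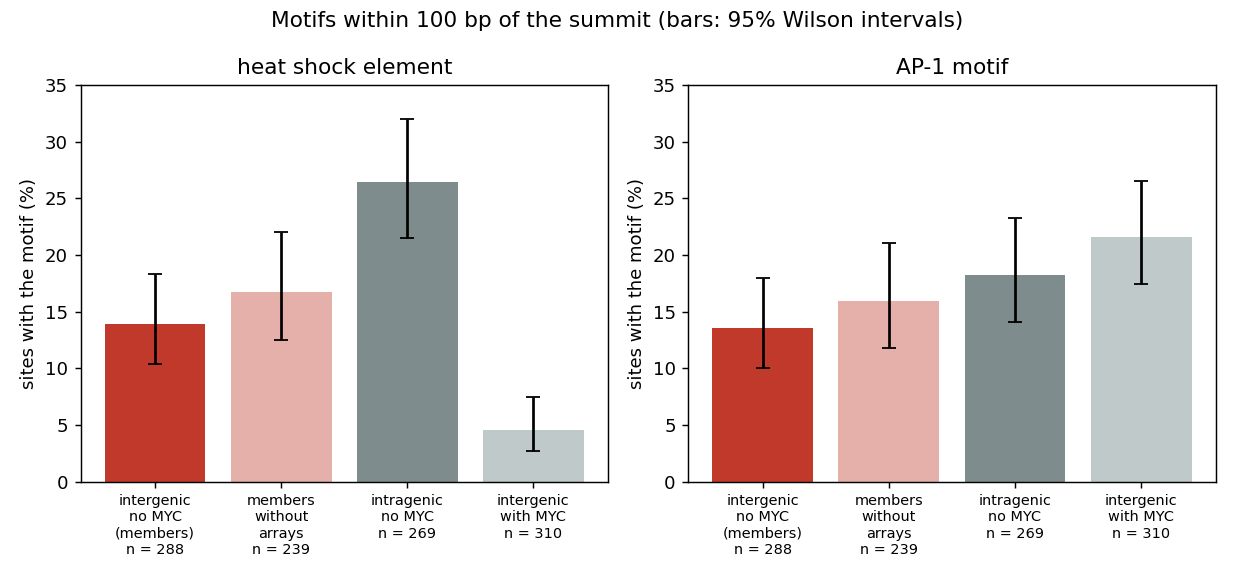
Share of sites (y axis, %) with a heat shock element (left) or an AP-1 motif (right) within 100 bp of the summit, in the 288 members, in the 239 members outside pentamer (GGAAT) arrays, in 269 intragenic HSF1 sites without MYC and in 310 intergenic HSF1 sites with MYC; error bars are 95% Wilson intervals. The element is at 13.9% in members, between 26.4% in intragenic sites and 4.52% in sites with MYC.

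The elements did not sit only at the summit. In the 40 members the centre of the nearest element lay a median of 71 bp from the summit, and in 12 of them within 50 bp. Outside GGAAT arrays there were 13.8 elements per 100 members at 200 to 100 bp to the left of the summit, 15.5 in the 100 bp to its left, 8.79 in the 100 bp to its right and 13.0 at 100 to 200 bp to the right. Beyond 300 bp each bin of 100 bp held at most 0.837 per 100 members. A wider window of 250 bp on either side found an element in 33.7% of all members, where 0.729% of genome windows of that size hold one, and a window of 50 bp found one in 2.43%. The share of members with an element therefore depends on the window chosen. The order of the 3 classes was the same in all 3 windows, and the same exact test against sites with MYC did not pass with the narrowest one (adjusted p = 0.278).

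**Figure D3:**
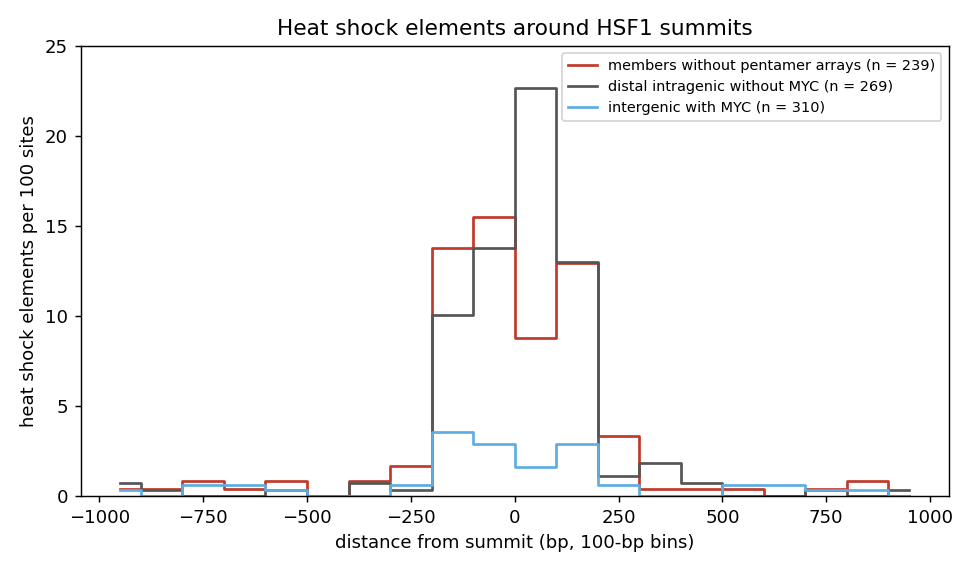
Number of heat shock elements per 100 sites (y axis) in 100-bp bins by distance from the HSF1 summit (x axis, bp), for 239 members outside pentamer (GGAAT) arrays, 269 intragenic sites without MYC and 310 intergenic sites with MYC. In members the elements spread over 200 bp on both sides, with 15.5 per 100 sites in the highest bin.

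In 49 members (17.0%, 13.1 to 21.8%) the window held at least 3 tandem copies of GGAAT, beside 2.29% of all reproducible HSF1 sites, 0.0413% of genome windows and 0.103% of intergenic windows. These 49 were all such sites among the 2141: none of the 269 intragenic sites without MYC (which allows a share of up to 1.12%) and none of the 310 intergenic sites with MYC (up to 0.968%) held the array. Of the 6038 genome windows with the array 5800 were intergenic by the same rule, so few arrays were open to the intragenic class. The MYC lists themselves held no array at a summit. The absence of arrays from the other classes is therefore not read as a trait of the members. The array group was defined after the data were seen and gets no test. The interval of 13.1 to 21.8% treats sites as independent, although 23 of the 49 lay in the stretch chr4:49094566-49154952 alone. Over the whole merged interval 52 members held at least 3 tandem copies, and array members here are the 49 with them in the window. The windows of these 49 held 17 to 31 copies of the pentamer. Each copy contains a GAA unit, and rows of 5 to 17 units followed each other at the 5-bp spacing of the heat shock element, but all in the same orientation. The longest alternating row was 1 unit in all 49, so none counted as a heat shock element. The array search and the element search can share the same GAA letters, yet no member satisfied both.

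The arrays lay on 7 chromosomes, in parts that flank centromeres. There were 28 on chromosome 4, 6 on chromosome 10, 4 each on chromosomes 2 and 5, 3 on chromosome 20, and 2 each on chromosomes 17 and Y. The densest stretch, chr4:49094566-49154952, held 23 members, with folds of 1.65 to 3.85 in replicate 1 and 2.23 to 6.98 in replicate 2. Further stretches of array members were chr4:49633945-49652496 with 5, chr10:41859716-41899812 with 6 and chr2:89829222-89840528 with 4. On chromosome 5 a stretch of 7 (chr5:49601226-49667211) held 4 arrays and 3 members without an array within 100 bp of the summit. Both of the members placed on chromosome Y were arrays, and no other reproducible HSF1 site was placed there. A line from an ovarian carcinoma would not carry that chromosome. The positions of these 2 members therefore say where reads of a repeat were placed in the assembly, not where the bound DNA lies. Whether the same holds for the other arrays was not tested.

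Array members had low folds on high signal, as did 12 other members of high background described below. Their median fold was 2.42 in replicate 1 and 3.34 in replicate 2, while the other 239 members had 6.25 and 7.08. Their median pileup was 49 and 58 fragments (16 to 348 and 16 to 519), against 13 and 13 in the others. MACS2 computes the fold as pileup plus 1 over local background plus 1, so the background can be recovered: its median was 20.5 and 18.3 at arrays, and 0.866 and 0.772 at the other members. Replicate 2 had the higher fold at 48 of 49 arrays and at 146 of 239 other members (61.1%). The array with the lowest −log10 p, chr4:49652304-49652496, had 2.28 and 2.71, while the array with the largest pileup in replicate 2, chr5:49666171-49667211, had 348 and 519 fragments and folds of 2.77 and 4.76. How reads that match many repeat copies were placed is not given in the sources used here, and its part in these values and in the positions of the arrays was not tested.

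**Figure D4:**
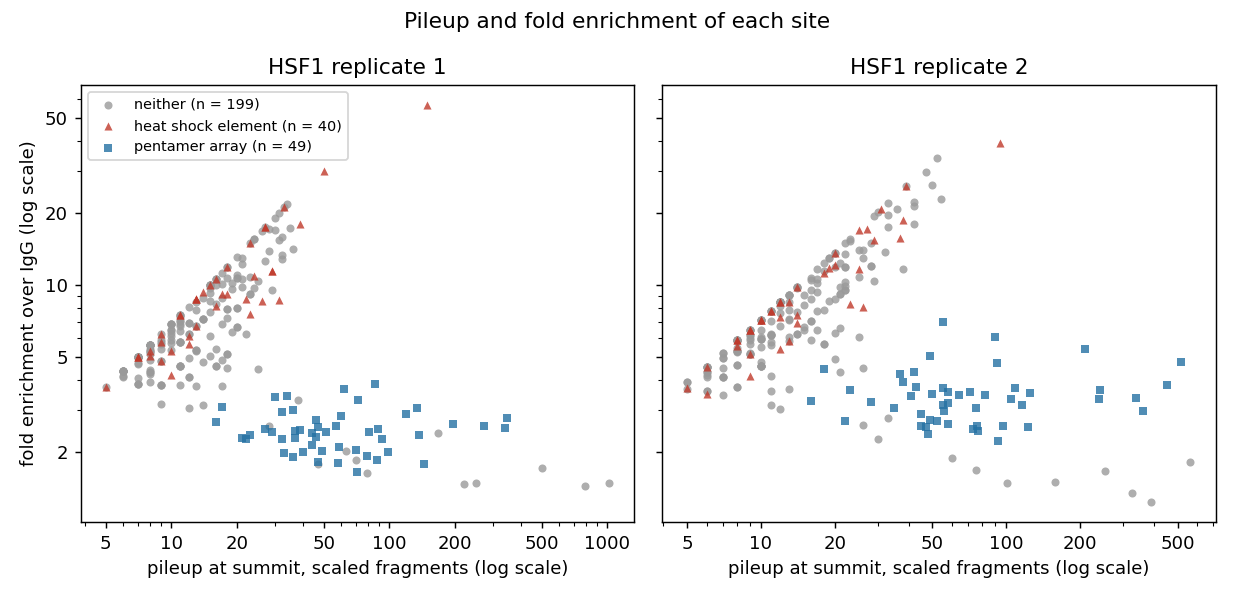
Pileup at the summit (x axis, fragments as scaled by MACS2, log scale) against fold enrichment over IgG (y axis, log scale) of each member, in HSF1 replicate 1 (left) and replicate 2 (right). Members in pentamer (GGAAT) arrays reach pileups of 348 and 519 but no fold above 3.85 and 6.98, while in the others the fold mostly rises with the pileup.

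The MYC lists held no array at a summit, among 25623 peaks of replicate 1 and 13278 of replicate 2. The HSF1 lists held 69 among 6421 peaks (1.07%) and 87 among 4459 (1.95%). At the threshold of the MYC lists, 24 of 1812 HSF1 peaks (1.32%) and 49 of 1440 (3.40%) were arrays. In both libraries 17 of the 49 array members passed that threshold. On unplaced and other sequences outside the 24 chromosomes, 15 of 55 peaks of HSF1 replicate 1 and 16 of 33 of replicate 2 held an array.

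A further 12 members without an array within 100 bp of the summit also had a recovered background above 5 in at least 1 library. Their folds were 1.44 to 3.31 and 1.23 to 4.49, on pileups of 28 to 1016 and 26 to 564 fragments. Of these 12, 6 held 8 to 12 copies of GGAAT without 3 in a row within 100 bp of the summit, on chromosomes 1 and 16. The largest pileups of all members, 1016 and 564, were at chr16:46389664-46391213, with folds of 1.48 and 1.81. None of the 12 holds a heat shock element within 100 bp of the summit. Without all 60 members of high background, 228 members remained, and 17.5% of them held the element.

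Most members lay alone. No other member was within 50 kb of 216 of the 288, 8 pairs were found, and 56 members lay in 8 stretches of at least 3. Of these stretches, 3 held no GGAAT array within 100 bp of a summit. The first, chr18:59716036-59783385, contains the strongest member and 3 others: chr18:59716036-59716231 (10.0 and 4.54), chr18:59750759-59751294 (9.99 and 9.12) and chr18:59782919-59783385 (10.1 and 7.08). The second, chr18:6624414-6630176, holds 3 members over 5763 bp. They lie between 99857 and 104988 bp upstream of ARHGAP28, with a lncRNA start closer, from 12619 bp away. Their folds were 10.7 and 4.13, 11.5 and 5.40, and 8.86 and 6.18, and the middle one carries a heat shock element. All 3 were higher in replicate 1. The last, chr7:142459351-142516216 in the T cell receptor beta locus, holds 4 members with folds of 4.48 to 19.1 and 3.59 to 34.1, and the leftmost of them (5.65 and 6.95) carries an element.

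Outside arrays, members were densest on chromosome 18 (0.174 per Mb), chromosome 7 (0.157) and chromosome 20 (0.155), and thinnest on chromosome 22 (0.0197) and chromosome 3 (0.0303). Chromosome Y, which the line would not carry, is left out of this ranking. The place of chromosome 18 rests on its pair of stretches, which hold 7 of its 14 members. With each stretch of at least 3 members counted once, chromosome 18 had 0.112 per Mb, below chromosome 20 (0.155), chromosome 7 (0.138) and chromosome 17 (0.120). All reproducible HSF1 sites were instead densest on chromosomes 19 (1.84 per Mb) and 17 (1.51), while chromosome 18 had 0.635. Chromosome 18 thus held 14 members among 51 sites, and chromosome 17 held 10 outside arrays among 126. The number of copies of each chromosome in OVCAR8 was not measured in these files, and its part was not tested.

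The nearest start site was that of a protein-coding gene for 145 members (50.3%) and of a lncRNA gene for 143. Members lay upstream of the nearest start in 142 cases (49.3%). The median distance was 40699.5 bp, or 26739 bp without arrays. It was 18262 bp for members with a heat shock element, 31097 bp for members with neither and 116102 bp for arrays, none of which lay closer than 66091 bp. Distances of 3 to 10 kb were found for 54 members, 10 to 50 kb for 105, 50 to 100 kb for 58, 100 to 500 kb for 53 and more for 18. Distance is part of the rule, so these values are a description.

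**Figure D5:**
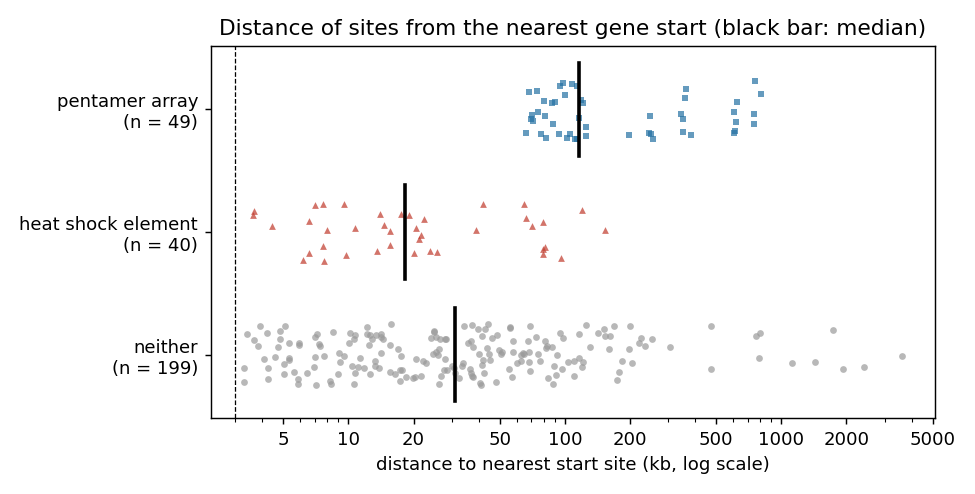
Distance from each member's midpoint to the nearest start site of a protein-coding or lncRNA gene (x axis, kb, log scale), by sequence kind; points are members, spread vertically for visibility, black bars are medians, and the dashed line is the 3 kb limit of the rule. Medians are 116102 bp for 49 pentamer (GGAAT) arrays, 18262 bp for 40 members with a heat shock element and 31097 bp for 199 with neither.

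Lists of genes from pathways tied to HSF1 or to this tissue were then searched for members within 100 kb of a start site, which 2.09% of all 20007 protein-coding genes had. Of 82 heat shock proteins and cochaperones 1 had such a member (1.22%). It was HSPB1, the small heat shock protein HSP27. The member lies 11019 bp downstream of its start at chr7:76314470-76314723, with low folds of 5.29 and 4.16, pileups of 10 and 9 fragments and a heat shock element.
Of 32 genes for ubiquitin, autophagy and oxidative stress 3 had a member (9.38%), and 2 are given here. GCLC, the catalytic subunit of the first enzyme of glutathione synthesis, had one 4239 bp away with 5.79 and 5.46 (chr6:53497010-53497212). GABARAPL1, an autophagosome protein, had one 20172 bp upstream with 4.58 and 8.26 (chr12:10192028-10192544). Neither of these sites holds an element within 100 bp of the summit.
Of 24 AP-1 and immediate early genes 2 had a member (8.33%). KLF6, a zinc finger factor, had one 44066 bp upstream with 9.83 and 10.4 (chr10:3828788-3829906). JUND, an AP-1 subunit, had one 22148 bp upstream with 5.62 and 5.86 (chr19:18303492-18304048). Neither site holds a heat shock element or an AP-1 motif within 100 bp of the summit.
Of 30 ovarian carcinoma lineage and marker genes 3 had a member (10.0%), and 2 of them share it. The member at chr7:73849445-73849861, with 9.99 and 9.12, lies 18657 bp from CLDN4 and 79383 bp from CLDN3, both claudins of tight junctions. MSLN, the surface protein mesothelin, had one 48031 bp away with 6.25 and 3.74 (chr16:813460-814171). The CLDN4 site was higher than the MSLN site in both libraries.
Of 36 adhesion, matrix and cytoskeleton genes 3 had a member (8.33%), and 2 are given here. ITGB6, an integrin subunit, had one 20561 bp downstream of its start with 8.74 and 7.17 and a heat shock element (chr2:160091274-160091825). TGFBI, a matrix protein, had one 16492 bp upstream with 9.17 and 8.73 (chr5:136012252-136012741). A listed gene need not be the nearest one. Another start site lay closer to the members given for HSPB1 (3657 bp), GABARAPL1 (5889 bp) and KLF6 (4603 bp). The same was true for JUND (12489 bp), CLDN4 and CLDN3 (7137 bp) and MSLN (3674 bp). Whether a member acts on a nearby gene was not measured, and the lists are too short for these shares to be read as a difference from the background.

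In total 9 members overlapped an annotated gene of another type, which the rule does not exclude. With an element within 100 bp of the summit were the members on the pseudogenes PGAM1P5 (8.74 and 7.82) and NPEPPSP1 (11.9 and 6.52). Without one there were those on HNRNPA1P30 (11.9 and 8.47), BTNL12P (10.8 and 9.35), MMP23A (5.77 and 8.78), WTAPP1 (3.17 and 6.23) and others. None of these is a pseudogene of a listed gene.

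At the edges of the rule, the members closest to a start site were 3281 bp from TEX19 (10.6 and 11.9), 3284 bp from a lncRNA start (10.8 and 9.35) and 3383 bp from CDK11A (5.77 and 8.78). Just outside were sites 2822 bp from FUT5 (10.8 and 10.5) and 2810 bp from RRAD (7.32 and 12.4). The member closest to a MYC peak was 88 bp from it (chr1:29640196-29640655, 3.85 and 4.57), and the next were 388 and 413 bp away. A MYC peak lay within 1 kb of 11 members and within 5 kb of 37, and the median gap was 55726.5 bp over the 286 members with a MYC peak on their chromosome. Of the 310 intergenic sites with MYC, 308 overlapped MYC replicate 1 and 174 overlapped MYC replicate 2. The lowest −log10 p of a member was 4.01, beside a calling threshold of 1e-04.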

How the data were processed

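The deposited files are peak lists that the authors made from each library separately. Reads were demultiplexed with bcl2fastq 2.20.0, aligned to GRCh38 with Bowtie 2, and peaks were called on paired-end fragments with MACS 2.2.9.1 against the same IgG control, which the headers call IgG replicate 2 and which was taken to be the 1 IgG library of the series. The columns used, as deposited, are the summit pileup (a coverage signal), the fold enrichment (a ratio to local background) and the −log10 p-value. Replicates were not pooled. No peak runs past the end of its chromosome in the reference, which is GRCh38.

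Lists were merged and compared in Python 3.11.15 (pandas 2.3.3, numpy 2.4.6, scipy 1.17.1, pysam 0.24.0, matplotlib 3.10.9). Only chromosomes 1 to 22, X and Y were used. Motifs were searched within 100 bp of the summit of the peak with the higher fold. Genome windows were tiled without overlap and hold no N. Fisher's exact tests were two-sided, with 0.05 as threshold after Benjamini-Hochberg adjustment. Wilson intervals cover counting error only, since peaks rest on PCR-amplified fragments. They also treat sites as independent, although many array members lay in shared stretches.

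Members and gene lists were chosen with earlier results of these data known. Named are the 10 members with the highest mean fold, the 6 with the longest row of units, listed genes within 100 kb, stretches of at least 3 members and pseudogenes of listed genes; other names were chosen after their values were seen. Some of the members and genes that this rule names are not reported here. Of 83 listed heat shock proteins and cochaperones 82 matched the annotation. The code was checked on shuffled windows for the element in members against intragenic sites (557 windows). The planted elements had the exact pattern searched for, so their 100% recovery was bound to occur. A planted difference, larger than the observed one, was called in 20 of 20 runs. None was called in 20 runs without one, where shuffling leaves few elements to differ. These runs therefore say nothing about false calls or power in the real windows. Merging recovered 500 of 500 shared peaks. The IgG library was used only through the authors' calls. In all, 15 alternatives were set at the start and 4 were added after the data were seen.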

Additional observations from a re-analysis of the deposited data

How the results depend on the processing

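The number of members, the share of them with a heat shock element and the 4 motif tests were recomputed under 15 alternatives set at the start and 4 chosen after seeing the data, each where it applies. The added ones leave out sites in GGAAT arrays or of high recovered background, or pair the HSF1 and MYC lists of 1 replicate number. Counts of arrays, folds, distances, densities and gene lists were not recomputed. The number of members was 288. It was 111 with HSF1 peaks held to the 1e-10 threshold, 1068 with either HSF1 list, and 290 to 745 with a library left out, the highest counts being 627 and 745 with single HSF1 lists. The share with a heat shock element was 18.9% at the stricter HSF1 threshold, 8.61% in the union, 9.41 to 13.8% with a library left out, 2.43% and 33.7% with windows of 50 and 250 bp, and 28.8% with 1 base allowed to differ.

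The odds ratio of the element against intragenic sites was 0.515 at the stricter threshold (exact test, adjusted p = 0.158), and 0.447 to 0.781 with a library left out. Against intergenic sites with MYC it was lowest with 1 base allowed to differ, at 1.59 (same exact test, adjusted p = 0.023), 2.17 at the stricter threshold (adjusted p = 0.158), 2.55 with the 50-bp window (adjusted p = 0.278) and 2.84 to 7.30 with a library left out. For AP-1 against intragenic sites the exact test passed with the 250-bp window (0.659, adjusted p = 0.0172) and without HSF1 replicate 2 (0.730, adjusted p = 0.0121), and the odds ratio was 0.693 to 0.953 with a library left out. For AP-1 against sites with MYC the difference no longer passed at the stricter threshold (0.790), with summits within 200 bp (0.674), with the 50-bp window (0.648), without GGAAT arrays (0.686), without sites of high background (0.679), without HSF1 replicate 1 (0.670, adjusted p = 0.0532) and without MYC replicate 1 (0.799, adjusted p = 0.346, same exact test), and it was 0.470 to 0.799 with a library left out.

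With the replicate number as a replicate block, HSF1 replicate 1 with MYC replicate 1 gave 749 members, and replicate 2 with replicate 2 gave 832, of which 8.29% held the element. The element against intragenic sites then had odds ratios of 0.771 and 0.868, neither of which passed (exact test, adjusted p = 0.0816 and 0.556), and against sites with MYC 7.22 and 3.48, which both passed. For AP-1 against intragenic sites the odds ratio was 0.725 in replicate 1, which passed (same exact test, adjusted p = 0.0103), and it turned to 1.06 in replicate 2 (adjusted p = 0.728), the only reversal among these results. For AP-1 against sites with MYC the difference no longer passed in replicate 2 (0.831, same exact test, adjusted p = 0.556). Nothing in the labels says that a shared number marks a shared culture. The causes were not tested, other than that the stricter threshold and the narrow window leave fewer sites or motifs.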
